A study of Apis mellifera with 25 samples.

Results

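The genes described here are those whose RNA level differed at least 100-fold between honey bee workers (Apis mellifera) of the same ovary status. They were chosen by their measured values: the mean over 25 libraries had to reach 16 CPM (counts per 1000000 counts of the library), and the highest bee had to reach 100 times the lowest among bees of 1 ovary status, with values under 0.1 CPM set to 0.1. Of the 15314 genes counted, 6241 reached the mean and 79 met the whole rule. A further 5 identifiers, GB49544, GB51223, GB47318, GB47546 and GB41428, were omitted from the choice, of which GB51223, GB47318 and GB41428 would also have passed.

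Each library held polyA RNA of 1 worker, taken from the eviscerated abdomen with its attached fat body and ovaries. The workers came from reciprocal crosses between Africanized and European honey bees and were raised in queenless colonies for about 18 days, and their ovaries were dissected to sort them. Of the 25 adult workers, 12 had active ovaries and 13 had inactive ovaries. All bees shared the queenless setting, so no bee from a colony with a queen serves as a control.

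Sample titles start with 875, 882, 888 or 894, and the labels do not say what this prefix marks, so it is called the title prefix and not a cross. Bees are named A1 to A12 (active ovaries) and I1 to I13 (inactive ovaries) in the order of the deposited columns, and the numbers pair no bees. Prefix 875 covers A1 to A3 and I1 to I3, prefix 882 covers A4 to A6 and I4 to I7, prefix 888 covers A7 to A9 and I8 to I10, and prefix 894 covers A10 to A12 and I11 to I13.

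Honey bee workers are normally sterile helpers, yet when the queen is lost a part of the workers activate their ovaries and lay unfertilised eggs. An active ovary holds growing oocytes with nurse cells that load them with RNA, whereas an inactive worker ovary is thin and holds few or no growing follicles. The fat body, which lines the abdomen, is the main organ of insect metabolism and secretes yolk precursor and immune peptides into the blood. In such bulk tissue, fewer cells of a type and less RNA per cell cannot be told apart.

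None of the 15314 identifiers matched the gene table used here, so the genes are given by identifier, no role is assigned to any of them, and the labelled tissue could not be checked against its markers. Library totals, in units of 1000000 counts, were 11.5 to 34.7 with active ovaries (median 27.6) and 7.54 to 37.7 with inactive ovaries (median 24.0). In the shallowest library, I10, a single read stood for 0.133 CPM. The libraries I6, I8 and I9 stood apart in the deposited allele counts, where reads are divided into a D and a Q kind. They had 23, 22 and 45 genes with a D share of at most 5% although at least 2 bees of the same prefix had 30% to 70%, against 0 to 4 such genes in the other bees. Without these 3 libraries 69 of the 79 genes still met the rule.

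The 79 genes were unlike ordinary genes by the construction of the rule. Their highest level over all 25 bees was 105 to 12090 times their lowest (median 536). The other 6157 genes at the same mean had a median range of 3.19-fold among active bees and 3.57-fold among inactive bees. The genes just inside the threshold were GB51781 at 101-fold, GB42169 at 105-fold and GB52549 at 105-fold, and those just outside were GB51218 at 99.98-fold, GB53872 at 99.8-fold and GB47486 at 98.8-fold.

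The wide range was seen only among active bees for 30 genes, only among inactive bees for 24 and in both for 25. The division is one of degree. The 24 genes chosen among inactive bees still ranged 9.83- to 86.0-fold among active bees (median 32.6), and the 30 chosen among active bees ranged 6.08- to 94.8-fold among inactive bees (median 30.4). For 43 genes no single bee decided the choice. For the other 36 leaving out a particular bee took the gene out of the rule, by its range or by its mean. This bee was most often A2 (12 genes), A3 (7), I3 (6) or A1 (5). The lowest bee of a gene had from 0 to many counts (median 20), and only 6 genes had any bee under 0.1 CPM, so the low state was mostly measured and not a count of 0.

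The genes switched in groups. Clustering the 79 genes on log2(CPM + 1) over the 25 bees, with genes joined at an average Pearson correlation of 0.7, gave 6 sets of at least 3 genes that held 63 of them, 3 pairs, and 10 genes in no set. These correlations describe genes measured in the same 25 libraries. Within a set, the median correlation between its genes was 0.84 for set 1 (30 genes, led by GB50800), 0.99 for set 2 (12, GB41331), 0.80 for set 3 (9, GB44996), 0.87 for set 4 (6, GB44100), 0.80 for set 5 (3, GB53119) and 0.96 for set 6 (3, GB42169), the gene named being the one with the highest mean CPM. A bee is called high for a gene when its log2 CPM lies above the midpoint between the lowest and the highest of the 25 bees. No bee was high or low for all 79 genes: the count ran from 22 genes high in I7 to 69 in I10. Over the 25 bees the means of sets 1 and 6 correlated at 0.62 and those of sets 1 and 5 at -0.85.

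**Figure D1:**
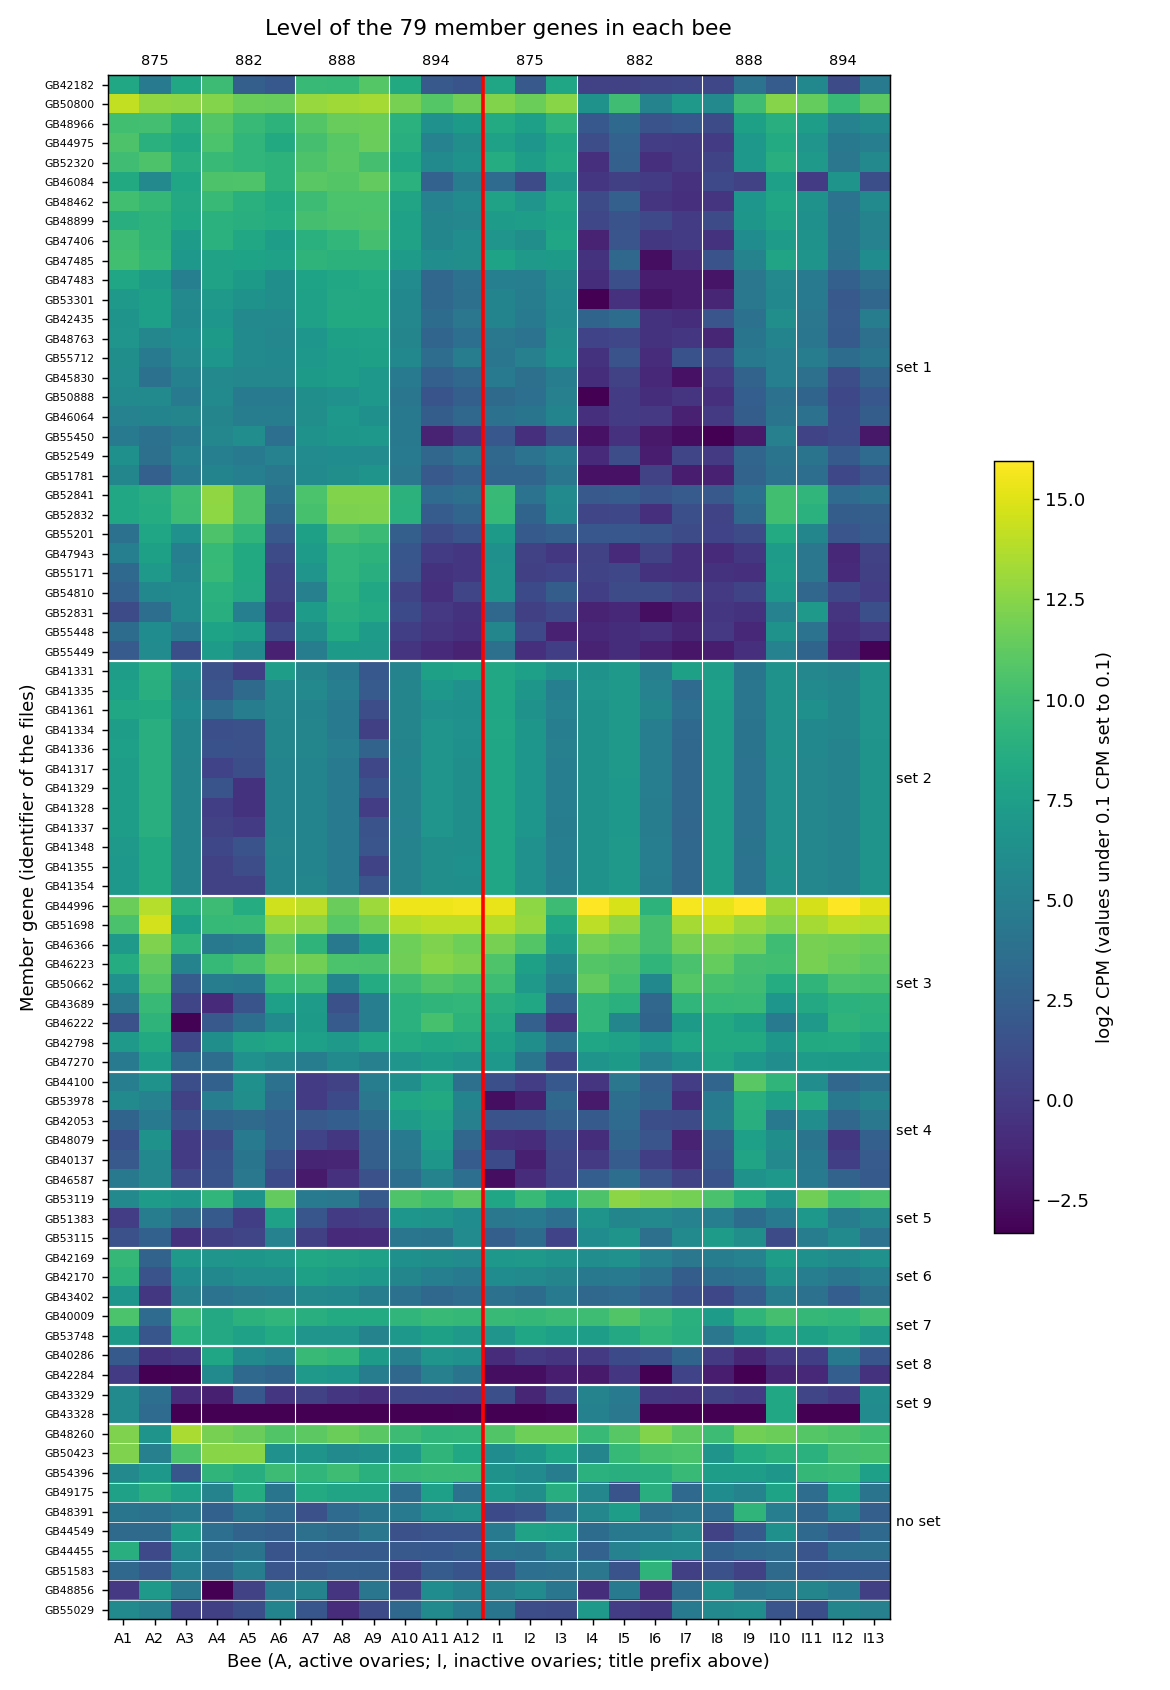
Heat map of the 79 genes (rows, grouped by set) in the 25 bees (columns, ordered by ovary status and title prefix), coloured by log2 CPM with values under 0.1 CPM set to 0.1. The large block of set 1 is low in I4 to I8, where set 5 is high. Set 6 is low in A2, I4, I6, I7, I8, I9 and I12. Sets 2, 3, 4, 8 and 9 divide the bees in other ways.

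Set 1 held 30 genes and was low in every inactive bee of prefix 882. In I4 to I7 at most 1 of the 30 genes was high, and in I8 of prefix 888 none was, while A4, A7, A8 and A9 had all 30 high. At a correlation of 0.8 the set divided into a first group of 20 genes, a second group of 9 and the single gene GB42182. The first group was switched off in a few bees, and the second was switched on in only some of the bees that had the first.

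In the first group, led by GB50800, the median level of the 20 genes was 0.677 CPM in I4, 2.87 in I5, 0.708 in I6, 0.723 in I7 and 0.980 in I8. In the other inactive bees it was 8.71 CPM in I12, 16.3 in I13 and 20.6 in I9, and 25.5 to 78.7 in I1, I2, I3, I10 and I11. Among active bees it ran from 10.4 CPM in A11 and 23.1 in A12 to 348 in A9. The 5 lowest bees were thus all inactive, and 4 of them were the complete set of inactive bees of prefix 882. Active and inactive bees overlapped: I3 at 78.7 CPM lay above A3 at 60.8, A6 at 76.6 and A10 at 57.1.

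GB50800 ranged from 1916 to 18831 CPM in active bees (median 5755) and from 39.6 to 5772 in inactive bees (median 1047). The lowest bees for it were I6, I8, I4 and I7, at 39.6 to 138 CPM, and I5 kept 1047 CPM. GB48966 ranged from 86.7 to 3151 CPM in active bees (median 957) and from 2.10 to 620 in inactive bees (median 56.8). For GB48966 I5 was among the low bees, at 9.86 CPM. GB46084, which differed most between ovary statuses in this group, ranged from 6.85 to 2566 CPM in active bees (median 538) and from 0.660 to 190 in inactive bees (median 1.89), and was low in A11, A12, I1, I2, I9, I11 and I13 as well as in I4 to I8.

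The second group of 9 genes was GB52841, GB52832, GB55201, GB47943, GB55171, GB54810, GB52831, GB55448 and GB55449. All 9 were high in A2, A4, A5, A7, A8, A9 and I10, 8 were high in A3 and I1, 7 in I11, 5 in A1 and 2 in A10, and none was high in the other 13 bees. The group was on and off in both ovary statuses: it was off in the active bees A6, A11 and A12 and on in the inactive bees I1, I10 and I11. Its median level was 89.4 CPM in I1, 157 in I10 and 20.4 in I11, against 1.70 in A6, 0.942 in A11 and 0.824 in A12. Each title prefix held bees with at least 7 of the 9 genes high and bees with none.

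The first and second groups were nested in these bees. Each of the 12 bees with at least 2 genes of the second group high had at least 18 of the 20 genes of the first group high. The reverse did not hold: A6 had all 20 first-group genes high, I3 had 19, A12 and I2 had 18, I9 had 17, I13 had 13 and A11 had 11, with no second-group gene high in any of them. In A6 the first group's median was 76.6 CPM and the second's 1.70.

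GB52841 ranged from 10.6 to 7041 CPM in active bees (median 765) and from 3.25 to 1137 in inactive bees (median 13.1). GB52832 ranged from 4.96 to 6584 CPM in active bees (median 723) and from 0.625 to 1091 in inactive bees (median 5.69). These pairs of values track each other closely. The 2 genes' counts were within 10% of each other in 10 of the 20 bees where their mean count was at least 100, so their reads may not be fully separate. GB55201 ranged from 2.06 to 1549 CPM in active bees (median 139) and from 1.47 to 350 in inactive bees (median 3.81). GB55201 and GB55171 list 5 of the same single-base positions on scaffold Group11.6, so their levels are also uncertain as separate measurements. GB42182 went with neither group in full, being high in A1, A3, A4, A7 to A10, I1, I3 and I11 but at 5.65 CPM in A5 and 4.77 in I10.

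**Figure D2:**
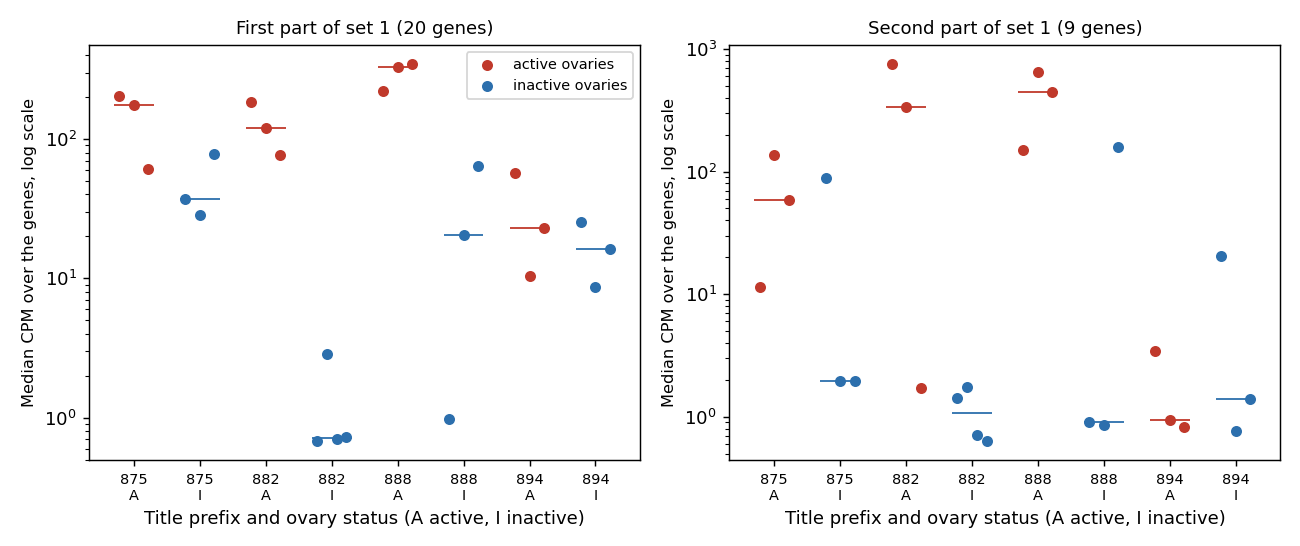
Median level (CPM, log scale) over the 20 genes of the first group and over the 9 genes of the second group of set 1 in each bee, by title prefix and ovary status, with bars at the median of the bees. The first group is lowest in I4 to I8, at 0.677 to 2.87 CPM, and the second group separates into bees under 2 CPM and bees above 11 CPM in both statuses, with A10 between them at 3.43 CPM.

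Set 8, the pair GB40286 and GB42284, divided the bees by title prefix among those with active ovaries. GB40286 was at 268, 57.8 and 36.6 CPM in A4 to A6, at 839, 700 and 165 CPM in A7 to A9 and at 34.3, 104 and 85.6 CPM in A10 to A12, but at 4.31, 0.722 and 0.868 CPM in A1 to A3 of prefix 875. In the 13 inactive bees it was at 0.426 to 22.2 CPM (median 0.980), with I12 highest and I7 next at 7.29. Both genes were therefore high in all 9 active bees of 3 prefixes, in none of the 3 active bees of prefix 875, and in 1 inactive bee, I12. GB42284 had the same high bees, with 136 CPM in A7 and 5.50 in I12 against 0.0425 in A2 and 0.108 in A3. The correlation of the pair was 0.99 over the 25 bees.

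Set 5 ran against set 1. Its members GB53119, GB51383 and GB53115 were all high in I2, I4 to I8, A6, A10 to A12 and I11 to I13, and at most 1 of them was high in A1 to A5, A7 to A9, I3 and I10. Among the bees with all 3 high, I4 to I8 had at most 1 of the 30 genes of set 1 high. I12 had 4, A11 had 11, I13 had 13, and I2 and A12 had 18. A6, A10 and I11 had 20, 23 and 26. GB53119 ranged from 4.49 to 2555 CPM in active bees (median 134) and from 103 to 6164 in inactive bees (median 1376). The 3 active bees of prefix 888 held its lowest values, 24.4, 20.8 and 4.49 CPM, while the 3 active bees of prefix 894 had 1597, 1100 and 2034 CPM, inside the range of the inactive bees. GB51383 ranged from 1.10 to 212 CPM in active bees (median 7.18) and from 11.4 to 126 in inactive bees (median 30.7). GB53115 ranged from 0.518 to 64.7 CPM in active bees (median 2.23) and from 1.44 to 154 in inactive bees (median 27.7). The listed positions of GB53119 (132890) and GB53115 (135360 to 135423) lie close together on scaffold Group4.5.

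Set 6, of GB42169, GB42170 and GB43402, owed its range to bees A1 and A2 of prefix 875, since leaving out either took all 3 genes under 100-fold. In A1 they were at 734, 557 and 111 CPM and in A2 at 6.97, 3.06 and 0.892 CPM. In the other 10 active bees GB42169 stayed between 63.2 and 306 CPM, and in inactive bees it ranged from 19.8 to 167 CPM (median 80.8). For GB42170 inactive bees ranged from 5.09 to 98.0 CPM (median 26.6), and for GB43402 from 1.82 to 28.5 CPM (median 10.6). The pair of set 7 was also low in A2: GB40009 was at 10.5 CPM there and at 157 to 1649 CPM in all other bees, and GB53748 was at 3.61 CPM in A2.

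Set 3 held the genes with the largest share of the reads, and most of its genes were low in a scattering of bees of 3 prefixes. Its 9 genes together took up to 8.94% of a library's counts, in I12, and as little as 0.135%, in A3. GB44996 alone ranged from 390 to 50550 CPM in active bees (median 11569) and from 578 to 63525 in inactive bees (median 35730). The low bees were A1, A3, I3, A4, A5, I6 and A8, with 0 to 4 of the 9 genes high, and I2 with 6, while 8 or 9 were high in the other 17. All 6 bees of prefix 894 had all 9 genes high.

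GB51698 ranged from 186 to 25519 CPM in active bees (median 5089) and from 279 to 17954 in inactive bees (median 10444). GB46366 ranged from 21.9 to 4839 CPM in active bees (median 617) and from 155 to 4602 in inactive bees (median 3641). GB46222 had the widest range of all 79 genes, 12090-fold, from 0.108 CPM in A3 to 1312 in A11. A3 lay far below the other bees for it, with I3 at 0.776 and A1 at 2.71 CPM next, all 3 of prefix 875.

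Set 2 joined 12 identifiers with similar counts in most bees. Of their 66 pairs, 54 had counts within 10% of each other in at least 50% of the bees where the pair's mean count reached 100. In I1, where they were closest, all 12 lay between 276 and 286 CPM. GB41331 departed from the rest in some bees: it was at 202 CPM in I7 and 180 in A6, where the median of the 12 was 8.97 and 42.8 CPM. Listed positions place GB41317 at 63440 to 63848, GB41329 at 81413 to 81546 and GB41331 at 98507 to 100126 of scaffold Group5.18. Reads counted for several identifiers and 12 genes that switch in step cannot be told apart here, and the set counts for 12 of the 79 genes. GB41331 ranged from 1.22 to 475 CPM in active bees (median 54.9) and from 18.5 to 286 in inactive bees (median 96.9). GB41335 ranged from 3.41 to 449 CPM in active bees (median 50.3) and from 10.6 to 284 in inactive bees (median 90.7). GB41361 ranged from 2.36 to 328 CPM in active bees (median 45.5) and from 12.9 to 277 in inactive bees (median 91.0). The low bees were A4, A5, A9, I7 and I9, with 0 or 1 of the 12 high, and the bee with the highest median was A2, at 437 CPM.

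Set 4 was high in few bees and mixed statuses. All 6 genes were high in I9, A10, A11 and I11, 5 were high in A2, A5 and I10, 3 in A12, and 0 to 2 in the rest. GB44100 was at 2075 CPM in I9, 627 in I10 and 221 in A11, with a median of 21.4 CPM in active bees and 7.70 in inactive bees. GB53978 ranged from 1.01 to 335 CPM in active bees (median 33.3) and from 0.167 to 479 in inactive bees (median 12.2). GB42053 ranged from 2.60 to 224 CPM in active bees (median 8.99) and from 2.07 to 430 in inactive bees (median 8.15), with I9 highest. I9 is 1 of the 3 libraries that stood apart in allele counts, and the set was also high in 3 bees of prefix 894 that did not.

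Set 9, the pair GB43329 and GB43328, was near 0 in most bees. GB43329 was at 294 CPM in I10, 71.4 in I13, 57.9 in A1, 40.0 in I4, 25.7 in I5 and 13.4 in A2, and at 0.328 to 3.91 CPM in the other 19. The same 6 bees were high for GB43328, which was at 285 CPM in I10 and at no more than 0.116 CPM in the other 19 bees. The pair's counts were within 10% of each other in 3 of the 6 bees with at least 100 counts, so they too may share reads. The 6 high bees came from 4 prefixes and both statuses. I10 and I13 were the 2 shallowest libraries of the 25, with totals of 7539840 and 8614986 counts, and the part of depth in their levels was not tested.

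**Figure D3:**
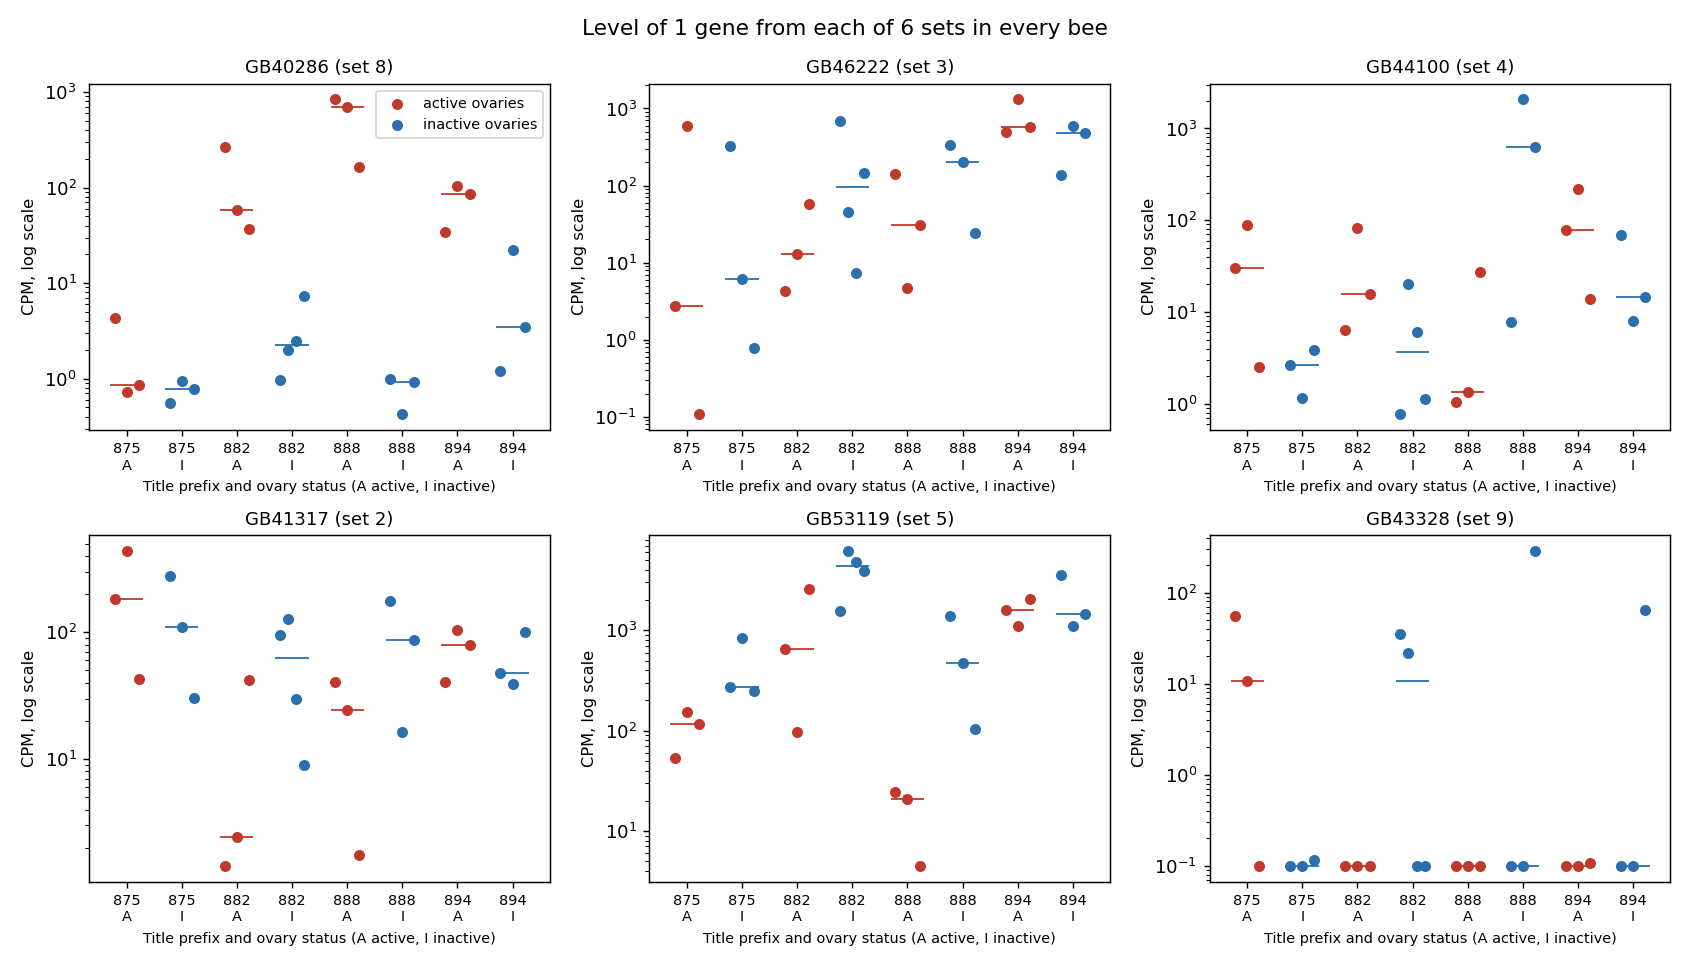
CPM (log scale) of GB40286, GB46222, GB44100, GB41317, GB53119 and GB43328, 1 gene from each of 6 sets, in every bee by title prefix and ovary status; lines mark medians and values under 0.1 CPM are drawn at 0.1. The high bees differ from gene to gene, although some bees are low for several: A1 to A3 are low for GB40286 and A4, A5 and A9 for GB41317, and A3 is low for all of the 6 but GB41317.

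Of the 10 genes in no set, the 6 with the widest range are given here. GB48856, high in 17 bees, ranged 1309-fold, from 0.0656 CPM in A4 to 131 in A2. GB51583 was at 599 CPM in I6 and at no more than 32.4 CPM in any other bee. GB48391 was at 637 CPM in I9 and 167 in I5 against a median of 18.0 in active and 13.5 in inactive bees. GB54396 followed the prefix: all 6 bees of prefix 875 lay between 3.51 and 127 CPM, and the other 19 lay between 118 and 978 CPM. GB55029 ranged from 0.551 to 59.3 CPM in active bees (median 6.10) and from 0.875 to 130 in inactive bees (median 17.7). GB44455 was at 449 CPM in A1 and at 1.91 to 64.2 CPM elsewhere. GB51583 and GB48391 thus owed their range to I6 and I9, which stood apart in allele counts.

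How much of the variation lay between prefixes differed between sets, which is a description, since the rule used the same variation. Within ovary status, a median of 47.4% of the variance of log2 CPM lay between prefixes for the 79 genes (12.7% to 83.1%) and 35.6% for the other 6157 genes. With so few bees of each prefix and status, part of such a share arises without any difference between prefixes. The size of that part was not computed, so a low share does not show a prefix difference. The share was 81.8% for set 8, 64.0% for set 1, 55.7% for set 5 and 54.7% for set 4, but 23.3% for set 6, 22.04% for set 7 and 21.9% for set 9, below that of the other genes. After centring on the mean of each prefix and status, the median correlation within set 1 was 0.61 and within set 5 0.61, against 0.84 and 0.80 before. For set 2 it was 0.98 and for set 3 0.81, about as high as before centring. The genes of set 3 thus also moved together among bees of the same prefix and status. For set 2 this cannot be told apart from reads counted for several identifiers.

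Active and inactive ovaries were compared over all genes with edgeR's quasi-likelihood test, prefix as a covariate and Benjamini-Hochberg adjustment. The range in the rule was taken within a status, and the mean of 16 CPM over both. The extreme bees that gave a gene its range also enter the comparison, so it is not independent of the rule. As for the mean, 12 of the 79 genes reached it in active bees only, 5 in inactive bees only and 62 in each status. Of 13746 genes tested, 20.6% had an adjusted p under 0.05, 10.9% higher and 9.62% lower with active ovaries. Of the 79 genes, 25 passed (31.6%), 24 higher and 1 lower, and 34 had an unadjusted p under 0.05. The 13746 genes did not have to reach the mean of 16 CPM, so these shares are not of like genes. Of the 24 higher genes, 8 were among the 12 that reached the mean through the active bees, which favours that direction. Of the 62 genes that reached the mean in each status, 16 were called higher and 1 lower. The 24 higher genes were 21 of set 1, both of set 8 and GB42170, so 5 of the 9 sets and pairs held no gene that passed.

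In the first group of set 1, 14 of the 20 genes reached the mean in each status, and all 14 rose with active ovaries, by 1.79 to 4.64 on the log2 scale, with edgeR adjusted p from 0.00595 to 0.0166. The other 6, GB45830, GB50888, GB46064, GB55450, GB52549 and GB51781, were also called higher, but they reached the mean through the active bees only and are given as a description. The calls of the 14 are not independent of the choice either. All 30 genes of set 1 met the range among inactive bees, 18 of them only there, and the low bees that gave that range also lower the inactive level. On CPM with library totals scaled by edgeR's TMM method, GB50800 had a mean of 5992 ± 3985 (SD, n = 12) with active ovaries. With inactive ovaries it was 2035 ± 1904 (SD, n = 13), and the log2 change was 1.79 (SE 0.51, edgeR adjusted p = 0.0158). GB42435 had the smallest p of the 14, with a log2 change of 2.22 (SE 0.53, edgeR adjusted p = 0.00595), and 11 of 12 active bees lay above the inactive median. GB46084 had the largest change, 4.64 (SE 1.31, edgeR adjusted p = 0.0166). By prefix, the group's median of 60.8 to 202 CPM in active bees met 28.4 to 78.7 in inactive bees of prefix 875, and 10.4 to 57.1 met 8.71 to 25.5 in prefix 894. In prefix 882 the values were 76.6 to 184 against 0.677 to 2.87 CPM, and in prefix 888 they were 222 to 348 against 0.980, 20.6 and 63.7. The active and inactive bees thus overlapped in 875 and 894 and did not in 882 and 888, and a difference of the ovary effect between prefixes was not tested.

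These calls leaned on prefixes 882 and 888. Without prefix 882 none of the 24 genes was called higher by edgeR, although 23 members had an unadjusted p under 0.05 in that direction, and the count over all genes fell from 1502 to 42. Without prefix 888 it was 4 of 24, and 265 over all genes. In the first group the log2 changes stayed above 0 without prefix 882, at 1.25 for GB50800 and 3.12 for GB46084. Without I6, I8 and I9 the count was 21.

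For the second group of set 1 none of 9 genes passed with edgeR, although their log2 changes, 2.04 to 3.78, lay within the range of the first group. Adjusted p ran from 0.121 to 0.30, 2 genes had an unadjusted p under 0.05, and limma-voom and DESeq2 each called 6 of the 9 higher. GB52841 had a log2 change of 2.86 (SE 1.52, edgeR adjusted p = 0.181). GB42182 was called higher at 4.49 (SE 1.48, edgeR adjusted p = 0.0363), but not by limma-voom or DESeq2.

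Both genes of set 8 reached the mean through the active bees only, so their ovary calls are a description and not independent of the choice. On TMM-scaled CPM, GB40286 had a mean of 164 ± 226 (SD, n = 12) in active bees and 4.26 ± 7.81 (SD, n = 13) in inactive bees. Its fitted log2 change was 4.19 (SE 0.87). For GB42284 the means on the same scale were 29.8 and 1.01 CPM and the fitted log2 change was 4.24 (SE 0.82). The 2 active bees that did not exceed the inactive median for GB40286 were of prefix 875. The fitted log2 change of GB40286 was 3.83 without prefix 882 and 3.21 without prefix 888. GB42170 of set 6 rose by 1.37 (SE 0.45, edgeR adjusted p = 0.0357), and its 2 set mates had log2 changes of 1.15 and 0.85 with adjusted p of 0.0591 and 0.129. GB42170 met the range among active bees only, through A1 at 557 CPM and A2 at 3.06 CPM. Both bees enter the comparison, so this call is not independent of the choice. It was not called by limma-voom (adjusted p = 0.197), without prefix 882 (edgeR adjusted p = 0.212), without prefix 888 (0.208) or without I6, I8 and I9 (0.123).

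GB53119 of set 5 was the 1 gene called lower. It met the range among active bees only, so the low active bees that gave its range also enter this comparison. On TMM-scaled CPM, active bees had a mean of 702 ± 909 (SD, n = 12) and inactive bees one of 2297 ± 2302 (SD, n = 13). GB53119 had a log2 change of -2.47 (SE 0.67, edgeR adjusted p = 0.0122), and 3 of 12 active bees lay above the inactive median. It was not called without the prefix term (-1.72, adjusted p = 0.146), without prefix 882 (-2.58, adjusted p = 0.107) or without prefix 888 (-1.61, adjusted p = 0.0881). GB53115 had a log2 change of -2.28 (adjusted p = 0.0905) and GB51383 one of -0.83 (adjusted p = 0.397) by edgeR. Both limma-voom and DESeq2 called GB53119 and GB53115 lower, but GB53115 reached the mean of 16 CPM through the inactive bees only, as did both genes of set 9. GB44549, highest in A3, I2 and I3 of prefix 875 at 150, 221 and 191 CPM, fell just outside the threshold at -1.45 (SE 0.52, edgeR adjusted p = 0.0505), and was called lower by DESeq2 (adjusted p = 0.0208) but not by limma-voom (adjusted p = 0.120).

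Sets 2, 3, 4, 7 and 9 held 31 genes and none passed the edgeR test. At an unadjusted p under 0.05 there were 0, 1, 0, 0 and 2 genes, limma-voom called 1 gene of set 3 lower, and DESeq2 called 2 genes of set 3 and 2 of set 9 lower. Set 3's log2 changes ran from -1.77 to 0.18, with GB44996 at -1.77 (SE 0.78, edgeR adjusted p = 0.103). GB43328 of set 9 had the largest fitted change, -6.70, but with an SE of 2.70 and an edgeR adjusted p of 0.0798. A p that misses the threshold does not show that these genes were alike in the 2 statuses.

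**Figure D4:**
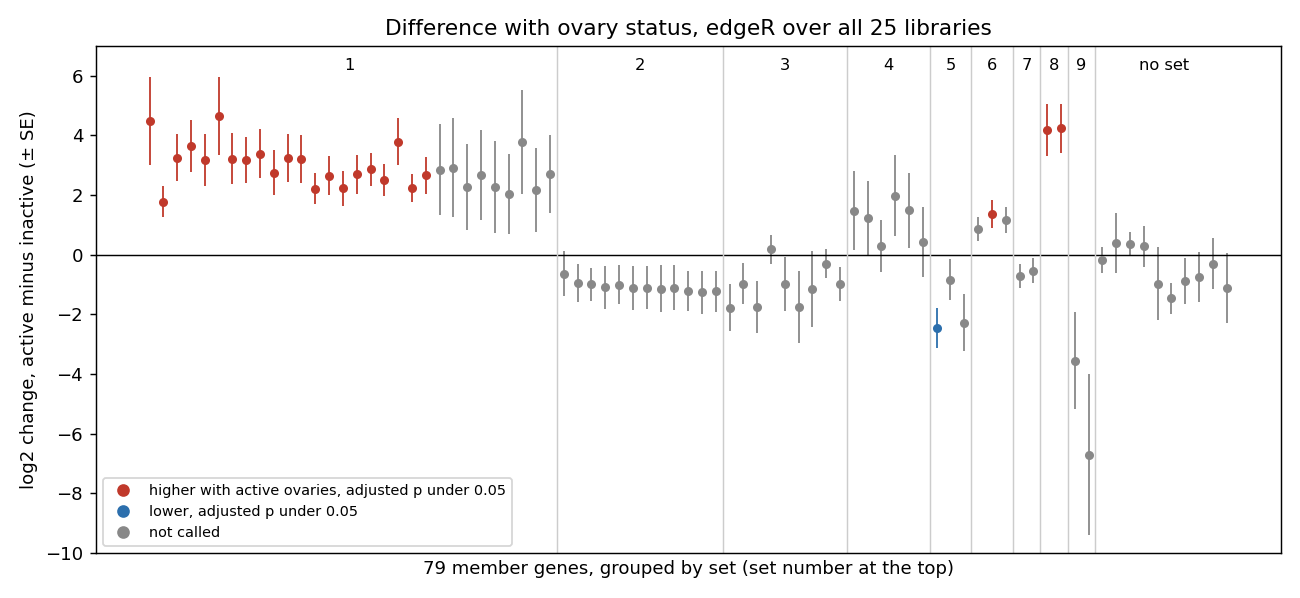
Log2 change of each of the 79 genes, active minus inactive ovaries (edgeR, bars show SE), grouped by set, with genes called at an adjusted p under 0.05 marked. The called genes are 21 of the 30 in set 1, both genes of set 8, GB42170 and GB53119, and the genes of sets 2, 3, 4, 7 and 9 are not called.

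Sites that differ between alleles were listed for 29 of the 79 genes, on 25 scaffolds. D and Q are not defined in the labels or headers, and a read can be counted at more than 1 position, so the intervals of these shares are not given. Of the 29, 27 had a D share from at least 10 reads, in 325 combinations of gene and bee, with a median of 55.6%. In 278 of the 325 both D and Q had over 5% of the reads. The high bees of several genes showed both kinds of read: GB40286 had a D share of 60.8% in A7 (14524 reads), 59.7% in A8 (13178 reads) and 55.8% in A9 (2207 reads). GB44100 in its highest bee, I9, had 39.9% (36985 reads), and GB44549 had 57.6%, 57.5% and 55.1% in A3, I2 and I3. GB47943 of the second group had 49.2% in A4 and 50.1% in A5, but 80.9%, 86.1% and 70.1% in A7, A8 and A9. Of the 325 D shares, 239 came from bees that were high for the gene, and in 199 of these both kinds had over 5% of the reads. The other 40 were nearly of 1 kind: GB53119 had a D share of 100% in I6 (4901 reads) and I7 (3145 reads), GB42182 had 99.6% in A7 (1572 reads), and GB50423 had 0% in A4 (260 reads). In I9 itself, GB48079 of the same set as GB44100 had a D share of 100% (610 reads) and GB40137 had 2.89% (380 reads). Some values had equal counts of both kinds, such as GB48079 in A11 with 116 D and 116 Q reads. GB55201 and GB55171 entered with the same reads, as in A4 with 1150 D and 408 Q, so these totals hold some values more than once. With these limits, high levels came with reads of both kinds in most of these values but not in all.

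Genes outside the 79 followed the sets to different degrees. The 3 most like set 1, by correlation of log2(CPM + 1) with the set's mean over 25 bees, were GB54808 (0.98), GB45137 (0.98) and GB43556 (0.97), and 155 of the 6157 genes reached 0.9. For set 6, 68 genes reached 0.9, led by GB51050, GB45315 and GB50126 (each at 0.95 to 0.96). For set 2, 17 did, led by GB41360 (0.98), GB41341 (0.97) and GB41340 (0.97), and for set 3, 3 did, GB50121 (0.93), GB50115 (0.93) and GB41912 (0.91). Set 5 was followed by GB53116 (0.92), GB51532 (0.86) and GB51392 (0.85). For set 4 the closest was GB41657 at 0.60, then GB53568 (0.59) and GB41663 (0.56), and none of the 6157 reached 0.8. Sets 1 and 6 thus belonged to wider groups of genes whose range was under 100-fold.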

How the data were processed

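Gene-level RNA-seq counts were deposited by the authors as 1 table of raw counts per gene with 25 columns, 1 per bee, and D and Q read counts at single-base positions were deposited as 2 further tables. TopHat and edgeR are named in the submitters' processing notes without versions. No genome build, annotation, counting tool or strand setting is named there or in the labels. CPM were computed as counts over the column sum, except that the group means and SDs given with the ovary test were TMM-scaled. The members and the lists were chosen with earlier results of these data known. Bees were grouped by ovary status from the labels, and each bee is a separate individual.

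Ovary status was tested on the counts with edgeR 4.0.16 in R 4.3.3 (TMM, filterByExpr, robust quasi-likelihood fit, title prefix as covariate), with limma 3.58.1 and DESeq2 1.42.0 as alternatives, and checked on simulated data. Counting error limits values near 1 read. Sets were built in Python 3.11.15 with scipy 1.17.1. A D share was summed over a gene's positions within a prefix, leaving out positions where D and Q counts were closer to equal in all bees than counting allows. Alternatives covered scaling, thresholds, the CPM floor, correlation settings, filters, tools and libraries left out.

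Genes were named by rule: the 3 of highest mean in each set of at least 3, the higher-mean gene of each pair, the 6 widest in no set, each gene called for ovary status and the 3 most alike genes outside each set. For the called genes of the first group of set 1, values in each bee are given by range and in the heat map only, a departure from the rule made for length. Other genes named, such as those of the second group, GB44549, GB48079 and GB40137, were chosen after their values were seen.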

Additional observations from a re-analysis of the deposited data

How the results depend on the processing

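The number of genes was 130 at a 50-fold threshold and 51 at 200-fold, and 67 to 79 when each bee was left out in turn. It was 62 to 79 under TMM scaling, the other CPM floors, a mean of 32 CPM and without I6, I8 and I9. The 6 sets became 6 or 7 under every clustering alternative run, but this number does not show whether their members stayed together. At a correlation of 0.8 set 1 divided into 20, 9 and 1 genes, set 3 into 5, 3 and 1, and set 5 into 2 and 1. The pair of set 7 separated, while sets 2, 4, 6, 8 and 9 stayed whole. The members under the other clustering alternatives are not given here. The 24 genes higher with active ovaries became 0 without prefix 882 and 4 without prefix 888, and 21 to 30 under the other alternatives; the cause was not tested, and both leave fewer bees. The 1 lower gene became 2 without the robust fit and 2 without I6, I8 and I9, 0 without the prefix term, 0 without prefix 882 and 0 without prefix 888, 6 without prefix 875, 3 by limma-voom and 7 by DESeq2; the cause was not tested. None of the named genes' ovary changes that were recomputed turned its direction. No paired analysis was possible because the labels give no replicate numbers shared between ovary statuses. Depth limits values near 0.1 CPM, under 1 read in the shallowest library.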
